A study of Mus musculus with 12 samples.

Results

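A group of 9 genes of cardiac electrical activity was examined in adult mouse cardiac myocytes cultured with or without recombinant connective tissue growth factor (CTGF), namely the inward rectifier channel genes Kcnj2 and Kcnj3, the transient outward current genes Kcnd2 and Kcnip2, the delayed rectifier genes Kcnq1 and Kcna5, the pacemaker channel genes Hcn2 and Hcn4, and Gja1, which encodes the gap junction protein connexin 43. The genes were chosen by symbol, and all probes with these symbols in the platform annotation were taken, which gave 14 probes for the 9 genes among 45281 probes on the array. Myocytes were isolated by collagenase perfusion from the hearts of C57BL/6 mice aged 12-16 weeks and plated on laminin with 10 mmol/L BDM, which stops contraction, in both groups. The 6 CTGF samples received 200 nmol/L of the protein for 48 h and the 6 control samples received none. CTGF is a protein that cells secrete into the extracellular matrix. The labels do not say whether the 6 samples of a group came from separate hearts, so p-values here describe variation among these 12 samples, part of which may be technical. No slide or batch is given in the sources used here, and one that went with the treatment cannot be told apart from it.

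The cardiac action potential is set by the order in which these channels open and close. In mouse ventricle the transient outward current, carried by Kv4 channels with the accessory protein KChIP2, and the Kv1.5 current repolarize the cell, the inward rectifier Kir2.1 holds the resting potential, and HCN channels carry the depolarizing current of pacemaker cells. Connexin 43 forms the gap junction channels that pass current from one ventricular myocyte to the next at the intercalated disc.

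Per array, 14747 to 16390 probes were detected at a detection p under 0.05. In each group of 6, the raw 75th percentile of intensity averaged 103 (SD 7.27) with CTGF and 95.6 (SD 2.87) without, a difference with a two-sided p of 0.0628 by exact permutation, while the raw medians were 73.1 ± 2.87 and 73.2 ± 0.897. Values below are log2 intensities after background correction and quantile normalization, unless they are called raw. Over the 8905 genes tested the log2 fold change had a median of 0.03 on these values, but 0.32 under median scaling and 0.35 when arrays were not normalized to each other. Median scaling only shifts each array by a constant, and the shift was small here. It is therefore no separate check from leaving the arrays unnormalized. All 11 tested myocyte markers were bright, with mean log2 intensities of 10.84 to 15.92, and no marker of Schwann cells or neurons passed the detection filter. The 11 tested endothelial markers were also measurable, and the labelled myocyte cultures therefore held RNA of other cells. All 11 were lower with CTGF, and of 7 tested smooth muscle and pericyte markers 6 were lower and 1 higher. Of 6 tested fibroblast markers 3 were lower and 0 higher, with summed linear levels of 5114 to 6030 with CTGF and 4092 to 7353 in controls and Postn detected on no array. Of 3 tested macrophage markers 1 was lower and 0 higher, at 84.1 to 106 and 89.8 to 143, and Ptprc and Fcgr1 were detected on no array. The summed level of the myocyte markers was 295107 to 326782 with CTGF and 319109 to 338238 in controls, with 4 of 11 lower and 0 higher. These marker counts take the brightest probe of each gene, and other probes could differ. Log2 fold changes at other probes were 0.45 and -0.29 for the myocyte marker Atp2a2, and 0.42 and -0.20 for the fibroblast marker Dcn. Among the other myocyte markers they were -0.88 for Actc1, -0.78 for Myh6 and -1.54 to 0.03 for Ttn. They were -0.09 and 0.03 for Ryr2 and -0.02 for Mb.

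With CTGF, Kcna5 and Hcn2 were lower and no member of the group was higher. Kcna5 was above background on all 6 control arrays and on none of the 6 CTGF arrays, and Hcn2 was 1.44-fold lower after quantile normalization. Gja1 did not pass the test, nor did Kcnd2, Kcnip2 or Kcnj3. Kcnj2, Kcnq1 and Hcn4 were too dim to test. The test was a limma fit across all genes detected on at least 6 of 12 arrays, with a Benjamini-Hochberg adjusted p under 0.05 as the threshold. Of the 6 genes tested, 0 were higher and 2 lower, and among all genes tested 25% were higher, 21.6% lower and 46.6% one or the other. With so many genes called, 2 of 6 is not a result about the group.

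The sequences upstream of the 2 genes that fell and of Gja1, whose deposited raw signal is discussed beside theirs, are shown for orientation. Each is the 250 bases before the gene start, 5′ to 3′ on the gene's strand, from the RefSeq annotation of GRCm38.p6, which held 8 of the 9 genes. Capitals mark matches, on either strand, to any of 6 motifs: the GC box GGGCGG, the TATA box TATAAA, the AP-1 site TGANTCA, the cyclic AMP response element TGACGTCA, the GATA site GATAAG and the T-box site AGGTGTGA.
Kcna5, GRCm38.p6 chr6:126535556-126535805, minus strand: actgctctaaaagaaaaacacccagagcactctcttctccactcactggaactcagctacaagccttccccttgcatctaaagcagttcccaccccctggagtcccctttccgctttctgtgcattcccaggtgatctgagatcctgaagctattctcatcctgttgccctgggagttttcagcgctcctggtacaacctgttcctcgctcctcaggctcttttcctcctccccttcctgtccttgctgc
Hcn2, GRCm38.p6 chr10:79716384-79716633, plus strand: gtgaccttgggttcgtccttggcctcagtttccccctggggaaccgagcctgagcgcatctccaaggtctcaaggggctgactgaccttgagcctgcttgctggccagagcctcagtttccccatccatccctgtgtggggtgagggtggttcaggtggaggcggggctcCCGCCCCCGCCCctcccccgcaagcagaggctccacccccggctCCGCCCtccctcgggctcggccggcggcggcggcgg
Gja1, GRCm38.p6 chr10:56377050-56377299, plus strand: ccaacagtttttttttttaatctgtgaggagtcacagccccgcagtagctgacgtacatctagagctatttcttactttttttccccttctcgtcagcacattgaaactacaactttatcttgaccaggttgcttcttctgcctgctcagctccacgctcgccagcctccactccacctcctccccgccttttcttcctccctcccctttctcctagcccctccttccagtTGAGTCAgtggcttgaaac
The Kcna5 window held none of the 6 motifs. The Hcn2 window held 3 GC boxes, which begin at -80, -74 and -36 from the gene start, and 32.7% of 32851 promoter windows hold at least 1. The Gja1 window held 1 AP-1 match at -19, a motif in 6.75% of all windows. The bases G and C made up 53.2% of the Kcna5 window and 70.4% of the Hcn2 window, with a median of 52.4% over all windows. The arrays measured transcripts, not these sequences, so the matches are descriptions of the letters alone.

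**Figure D1:**
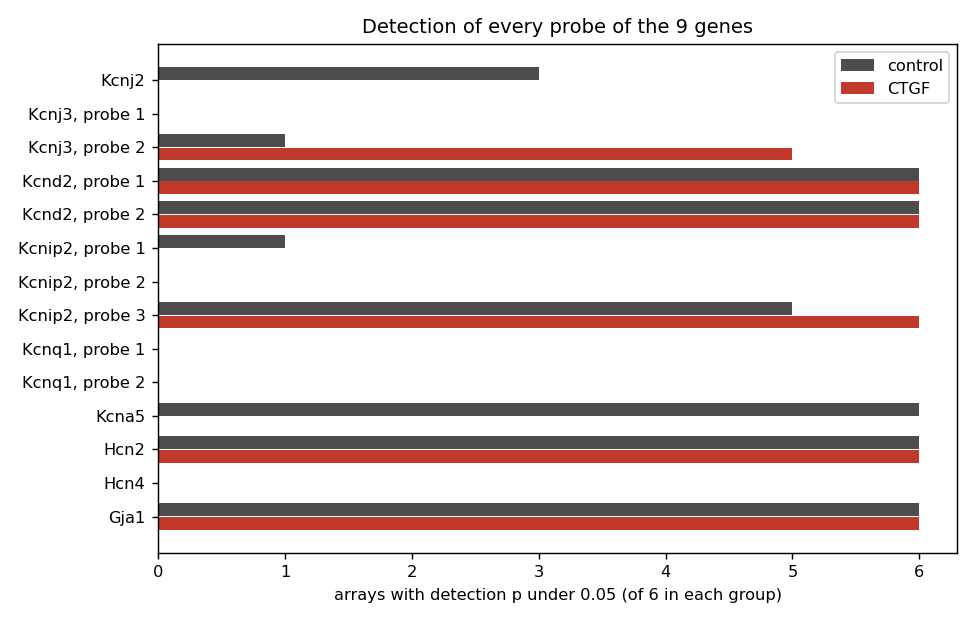
Number of arrays, of 6 in each group, on which each of the 14 probes had a detection p under 0.05, with controls in grey and CTGF in red. Kcna5 has a full control bar and no CTGF bar, while both probes of Kcnq1 and the probe of Hcn4 have no bar in either group.

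Detection separated the members before any fold change was taken. Gja1, Hcn2 and both Kcnd2 probes were detected on all 12 arrays. Kcnip2 was detected by 1 of its 3 probes, which are annotated to different transcripts of the gene, on 6 CTGF and 5 control arrays. Kcnj3 was detected by 1 of its 2 probes, on 5 CTGF arrays and 1 control array. Kcnj2 was detected on 3 control arrays and no CTGF array. Both Kcnq1 probes and the Hcn4 probe were not above background on any array. In all, 7 of the 14 probes and 6 of the 9 genes passed the filter, while 33.2% of all probes on the array did. A probe that stays dim gives no level for its gene, and a dim probe cannot be told from a gene with little transcript.

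Kcna5 encodes Kv1.5, the pore subunit of a rapidly activating delayed rectifier current that is prominent in atrial myocytes and, in the mouse, in ventricular myocytes too. Its raw intensity in controls had a lowest value of 84.0, a median of 87.3 and a highest value of 92.0. With CTGF the lowest was 61.2, the median 69.2 and the highest 73.8. Every CTGF array lay below every control array in the raw data as well as after normalization, a pattern seen in 12.1% of all genes on the normalized values. Mean log2 intensity was 5.19 ± 0.13 (SD, n = 6) in controls but 4.44 ± 0.08 (SD, n = 6) with CTGF, a log2 fold change of -0.75 ± 0.08 (SE, limma adjusted p = 2.14e-06). Kcna5 passed the detection filter through the control arrays alone, and its CTGF signal was not above background. The fitted value is therefore no exact size of change, and its adjusted p is that of a gene selected through its brighter group. With no detection filter Kcna5 was also called lower (limma adjusted p = 1.86e-06), from the same CTGF values at background. As a bound on these background-corrected and quantile-normalized values, Kcna5 was at least 1.27-fold lower. The bound sets the control mean against the lowest signal of a detected probe on each CTGF array, or the probe's own signal where that is higher. Detection on all 6 control and no CTGF arrays was uncommon, with 26 of 45281 probes, or 0.0574%, showing it, and the reverse pattern held for 0.0795% of probes. The call was kept with no normalization between arrays (-0.66, limma adjusted p = 9.13e-05), but the size of the fitted value depended on the background step, and was -0.31 with none and -0.37 on the authors' own normalization.

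Kcna5 is known as an atrial gene, and atrial markers were read beside it. Of 5 tested atrial markers 3 were lower and 0 higher, with a median log2 fold change of -0.32, and the median was 0.12 without normalization between arrays, where none was called in either direction. The summed linear level of the 5 ranged from 23820 to 27190 with CTGF and from 22189 to 26248 in controls, so the groups overlapped, and Bmp10 was detected on no array. On the same arrays all 11 tested endothelial markers were lower, and of 7 tested smooth muscle and pericyte markers 6 were lower and 1 higher. The part of any shift in atrial or in these other cells in the Kcna5 value was not tested. In samples of many cells, fewer cells of a type and less RNA per cell cannot be told apart.

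The pacemaker channel genes differed in whether they could be measured. Hcn2 encodes a cyclic nucleotide-gated channel that is found in ventricular as well as conduction tissue, and Hcn4 the main isoform of the sinoatrial node. The log2 intensity of Hcn2 in controls had a lowest value of 8.46, a median of 8.55 and a highest value of 8.65. With CTGF these were 7.78, 8.08 and 8.23. The groups did not overlap, with a log2 fold change of -0.52 ± 0.09 (SE, limma adjusted p = 0.000307), from means of 8.56 ± 0.07 (SD, n = 6) to 8.04 ± 0.20 (SD, n = 6). Hcn4 had raw intensities of 59.0 to 67.5 with CTGF and 59.2 to 69.3 in controls, all not above background. The related Hcn3, on the list of other pacemaker channel genes, was at -0.09 ± 0.15 (SE) and did not pass the test (limma adjusted p = 0.665).

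The fall of Hcn2 depended on the scaling between arrays. Its raw intensity ranged from 296 to 443 with a median of 341 with CTGF, and from 308 to 415 with a median of 381 in controls, so the raw groups overlapped widely. Without normalization between arrays the log2 fold change was -0.07 (limma adjusted p = 0.68). Median scaling gave -0.10 (adjusted p = 0.567), and log2 raw intensities gave -0.06 (adjusted p = 0.645). In the first 2 of these settings the log2 fold change of Hcn2 minus the median of all genes was -0.42, and after quantile normalization it was -0.56. The CTGF arrays had the higher raw 75th percentile given above, and its part in the Hcn2 call was not tested beyond these settings.

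**Figure D2:**
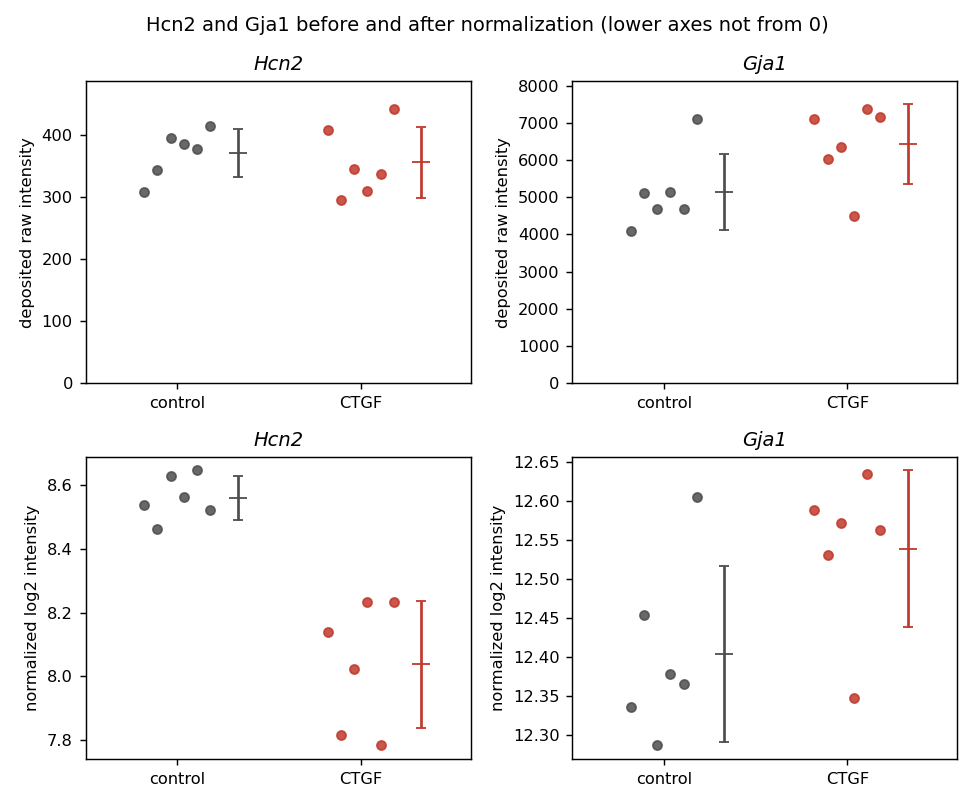
Hcn2 (left) and Gja1 (right) on each array as deposited raw intensity (top, axis from 0) and as normalized log2 intensity (bottom), with 1 point per array and bars of mean ± SD over 6 arrays. The raw Hcn2 values of both groups overlap between 308 and 415, while the normalized CTGF values all lie at or below 8.23 and the controls at or above 8.46.

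Gja1 gave the connexin 43 transcript with a strong signal in every sample. Its raw intensity had a lowest value of 4506, a median of 6721 and a highest value of 7382 with CTGF, and of 4101, 4902 and 7094 in controls. On the normalized log2 scale the CTGF arrays had a lowest value of 12.35, a median of 12.57 and a highest value of 12.63, and the controls 12.29, 12.37 and 12.60. Most CTGF arrays lay above most controls, but the groups overlapped, since CTGF replicate 4 was low at 12.35 and control replicate 6 was high at 12.60. The log2 fold change was 0.13 ± 0.08 (SE), with a 95% interval of -0.03 to 0.30 (limma adjusted p = 0.173). The interval leaves room for a rise of up to 0.30 and for no change. Without normalization between arrays the log2 fold change was 0.33 (limma adjusted p = 0.0676), or -0.02 relative to the median of all genes in that setting, and on log2 raw intensities 0.32 (adjusted p = 0.0469).

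The transient outward current genes were not called. Kcnd2 encodes the pore subunit Kv4.2, and its brighter probe had log2 intensities with a lowest value of 6.32, a median of 6.59 and a highest value of 6.79 with CTGF. In controls these were 5.79, 6.32 and 6.50. The groups overlapped, with control replicate 6 lowest, and the log2 fold change was 0.29 ± 0.12 (SE, 95% interval 0.03 to 0.55, limma adjusted p = 0.0636). Its call depended on the scaling, and it was higher without normalization between arrays (0.66, limma adjusted p = 0.000614). It was higher also with arrays scaled to 1 median (0.64, adjusted p = 0.000813). In these settings 49.4% and 47.4% of all genes were called higher. Relative to the median of all genes Kcnd2 was 0.31 in both and 0.26 after quantile normalization. Kcnd2 passed the threshold after quantile normalization also without CTGF replicate 4, control replicate 1 or control replicate 5, at 0.33 to 0.34. The second Kcnd2 probe, annotated to the same transcript, gave 0.11 ± 0.25 (SE, limma adjusted p = 0.761 over probes). Its control values spread widely, with an SD of 0.67. Over all probes that passed the filter 23.8% were called higher and 19.7% lower.

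Kcnip2 encodes KChIP2, which binds Kv4 channels and raises their surface expression. Its detected probe had log2 intensities with a lowest value of 5.17, a median of 5.39 and a highest value of 5.62 with CTGF, inside the control range of 4.91 to 6.09 with a median of 5.37. The log2 fold change was -0.05 ± 0.16 (SE, 95% interval -0.39 to 0.29, limma adjusted p = 0.825), and its sign turned to 0.16 without normalization between arrays. Relative to the median of all genes it was -0.19 in that setting and -0.08 after quantile normalization. The 6 controls spread over 1 log2 unit, with an SD of 0.41 against 0.16 with CTGF. The probe was dim, with a mean raw intensity of 97.0 with CTGF and 93.5 in controls, which limits what it shows.

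The inward rectifier genes were at the edge of detection. Kcnj2 encodes Kir2.1 of the background inward rectifier current, and Kcnj3 encodes Kir3.1, a subunit of the acetylcholine-activated channel of atrial and nodal cells. The detected Kcnj3 probe had log2 intensities with a lowest value of 4.51, a median of 5.01 and a highest value of 5.09 with CTGF, and of 4.47, 4.70 and 5.21 in controls. The groups overlapped and the log2 fold change was 0.18 ± 0.13 (SE, 95% interval -0.09 to 0.45, limma adjusted p = 0.267). Kcnj2 had raw intensities from 55.6 to 84.7 with a median of 71.4 with CTGF, and from 63.5 to 85.7 with a median of 79.8 in controls. With no detection filter Kcnj2 was at -0.24 ± 0.13 on the log2 scale (SE, limma adjusted p = 0.246). No bound on a fold could be given, since its control mean was under the lowest detected signal of the CTGF arrays. Kcnq1, the pore subunit of the slow delayed rectifier, was at -0.10 ± 0.07 (adjusted p = 0.455) and Hcn4 at 0.01 ± 0.05 (adjusted p = 0.946) with no detection filter, and 20.7% of the genes in that fit were called.

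**Figure D3:**
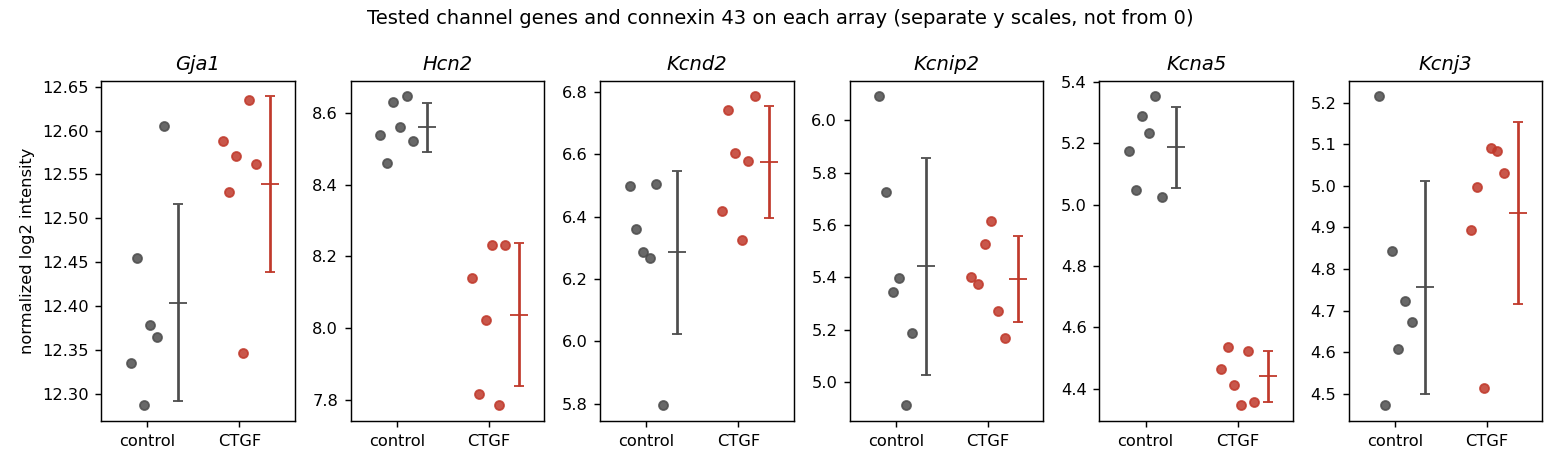
Normalized log2 intensity of the 6 tested genes on each array, with 1 point per array and bars of mean ± SD over 6 arrays, controls in grey and CTGF in red, and a y axis of its own for each gene that does not start at 0. Only in the Kcna5 and Hcn2 panels do the groups not overlap, as in 25.1% of all genes.

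**Figure D4:**
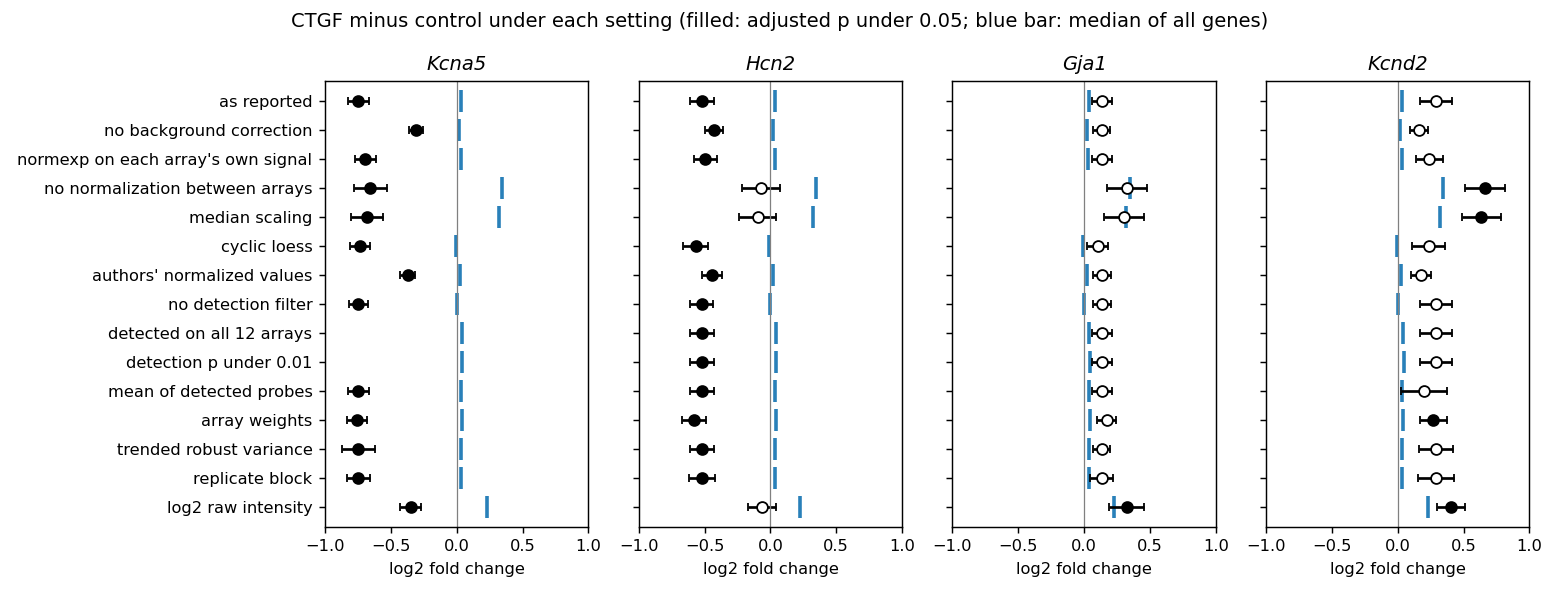
Log2 fold change (CTGF minus control) with its SE for Kcna5, Hcn2, Gja1 and Kcnd2 under each setting, filled where the limma adjusted p is under 0.05, with the median of all genes as a blue bar. Kcna5 is filled in every setting that gives it a value, but it passed the detection filter through the control arrays alone. It has no value over genes detected on all 12 arrays or with a detection p under 0.01. Hcn2 moves to -0.10 and -0.07 and loses its call under median scaling and with no normalization between arrays. There the blue bar moves to 0.32 and 0.35.

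Around these 9 genes, 106 further genes of cardiac electrical activity were read in 9 lists, of which 92 were named on the array and 49 tested. Of the 49, 12 were higher, 15 lower and 22 did not pass the test, or 24.5% higher and 30.6% lower against 25% and 21.6% of all genes. All 12 higher genes were called higher under median scaling and also with no normalization between arrays, while 4 of the 15 lower genes were called lower in both. These settings differ only by a small shift of each array, so they count as a single check. The 4 were Kcnk6, Gja5, Tbx3 and Etv1, all named by the rule for the lists. With no normalization 49.4% of all genes were called higher and 7.85% lower, and under median scaling 47.4% and 8.41%.

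Other potassium channel genes went both ways. Of 6 tested inward rectifier, two-pore and calcium-activated channel subunits 1 rose and 4 fell, beside 25% of all genes higher and 21.6% lower. The median change of the 6 was -0.42 on the log2 scale. Without normalization between arrays the median of the 6 was -0.09, and 1 was called higher and 1 lower. Kcnj12, which encodes Kir2.2, a partner of Kir2.1, rose by 0.74 ± 0.15 (SE, limma adjusted p = 0.000801), with detection on 6 CTGF arrays and 1 control array. Its size is uncertain because most controls were at background, and it was 0.28 with no background correction and 0.33 on the authors' normalization. The two-pore channel genes Kcnk3 and Kcnk6 changed by -0.59 ± 0.13 and -0.58 ± 0.11, and Kcnk6 was detected on 6 control arrays but 1 CTGF array. The size for Kcnk6 is likewise uncertain, at -0.21 with no background correction and -0.25 on the authors' normalization. Abcc9, which encodes the sulfonylurea receptor SUR2 of the ATP-sensitive potassium channel, changed by -0.46 ± 0.09, with -0.81 at its second probe. The calls of Kcnk3 and Abcc9 were lost without normalization between arrays, at -0.19 and -0.01. Abcc9 is also expressed in pericytes, and of 7 smooth muscle and pericyte markers tested 6 fell and 1 rose, with summed linear levels of 2765 to 3366 with CTGF and 4679 to 5347 in controls and Tagln detected on no array. Their part in the Abcc9 value was not tested.

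Of 5 tested voltage-gated potassium channel subunits outside the 9 genes 1 rose and 1 fell, beside 25% of all genes higher and 21.6% lower. Kcnh2, the pore subunit of the rapid delayed rectifier, rose by 0.36 ± 0.12 (SE, limma adjusted p = 0.0257), with 0.52 at a second probe, but its call was lost under cyclic loess (0.28, adjusted p = 0.0538). Kcne1, the accessory subunit of Kcnq1 channels, changed by -0.63 ± 0.14 (adjusted p = 0.00166), and by -0.23 without normalization between arrays, where its call was lost (adjusted p = 0.245).

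Of the inward current genes, 1 sodium channel gene and 6 calcium channel subunits were tested. The single tested sodium channel gene, Scn4b, which encodes a beta subunit, changed by -0.44 ± 0.11 (SE, limma adjusted p = 0.00507), with -0.08 at a second probe that did not pass the test and -0.02 without normalization between arrays. Of the 6 calcium channel subunits 1 fell, beside 21.6% of all genes, the T-type channel gene Cacna1h at -0.25 ± 0.09 (adjusted p = 0.0342). Without normalization between arrays Cacna1h was at 0.12, under the median of all genes of 0.35 in that setting. Cacna2d1, an auxiliary subunit of the L-type channel, was at -0.01 ± 0.25 and did not pass the test.

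Of 3 other connexins tested 2 fell and 1 did not pass the test, beside 21.6% of all genes lower. Gja5, which encodes a connexin of atrial myocytes, the conduction system and arterial endothelium, changed by -1.11 ± 0.09 (SE, limma adjusted p = 1.80e-07), with every CTGF array below every control and with -1.0 and -0.62 at its other probes. Gja4, which encodes a connexin of arterial endothelium, changed by -0.32 ± 0.10 (adjusted p = 0.0138). Without normalization between arrays Gja4 was at 0.11, under the median of all genes of 0.35 in that setting. The remaining tested connexin, Gjc1 of nodal tissue, named after its value was seen, was at 0.11 ± 0.14 and did not pass the test. It was called higher at 0.47 without normalization between arrays, as were 49.4% of all genes. On the same arrays all 11 tested endothelial markers were lower, with a median of -1.63, and their summed linear level was 1973 to 2415 with CTGF and 6734 to 8233 in controls, with Kdr detected on no array. The part of endothelial cells in the Gja5 and Gja4 values was not tested. The difference between Gja1 and the other connexins was not tested as such.

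Of 12 tested genes on the list of intercalated disc partners 7 rose, 1 fell and 4 did not pass the test, beside 25% of all genes higher and 21.6% lower. The median of the list was 0.37 on the log2 scale, beside 0.03 for all genes. With no normalization between arrays 10 of the 12 were higher, beside 49.4% of all genes, and the list was not tested against all genes. Ank3, which encodes ankyrin-G, an adaptor that links sodium channels to the disc, rose by 1.75 ± 0.09 (SE, limma adjusted p = 1.28e-09), with 1.14 at a second probe. The desmosomal plakophilin gene Pkp2 rose by 0.75 ± 0.08, and its other probes gave 0.86 and 0.77. Cxadr, an adhesion receptor of the disc, rose by 0.74 ± 0.10, with smaller values of 0.49 and 0.56 at its other probes. The caveolin gene Cav3 rose by 0.65 ± 0.10. For these 4 genes every CTGF array lay above every control, as for 13% of all genes. The single gene that fell, named after its value was seen, was Tjp1, which encodes the connexin-binding scaffold ZO-1, at -0.53 ± 0.12 (limma adjusted p = 0.00187), a call lost without normalization between arrays (-0.28, adjusted p = 0.118). Tjp1 is also expressed in endothelial cells, whose markers were lower as given above, and their part was not tested.

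Of 6 sarcolemmal pumps and exchangers 2 rose and 2 fell, beside 25% of all genes higher and 21.6% lower. The sodium pump beta subunit gene Atp1b1 rose by 0.80 ± 0.10 (SE) and Slc8a1, the sodium-calcium exchanger, by 0.46 ± 0.08 (limma adjusted p = 0.000256). Fxyd1, which encodes phospholemman, a regulator of the sodium pump, changed by -0.66 ± 0.09, with -0.17 at a second probe that did not pass the test. The cotransporter gene Slc12a2 changed by -0.46 ± 0.08, with -0.39 at a second probe. Both falls lost their call without normalization between arrays, at -0.21 and -0.06.

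**Figure D5:**
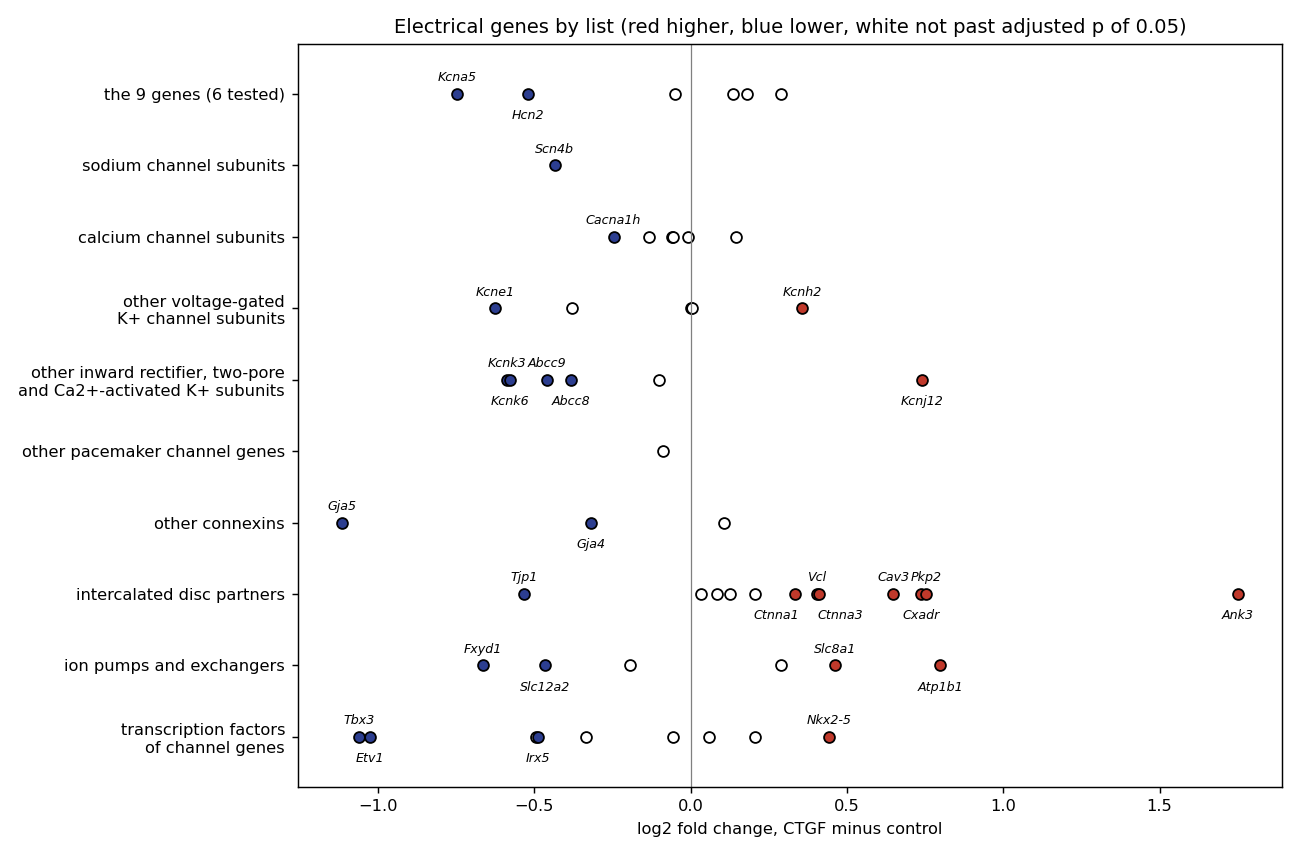
Log2 fold change (CTGF minus control) of the 6 tested genes and of the tested genes of the 9 other lists, 1 point per gene, red where called higher, blue where called lower and white where the limma adjusted p was not under 0.05. The intercalated disc row has 7 red points, from 0.33 to 1.75, and 1 blue point at -0.53.

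The profiles most like that of Hcn2 were found over the 12 arrays as the smallest mean absolute difference between log2 profiles, each centred on its own control mean. They were Mrps18c, Acadsb and Cenpb, at 0.07, 0.07 and 0.09 log2 units, and 14 of the 8904 other genes lay within 0.1. No such genes are given for Kcna5, whose CTGF values were at background.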

How the data were processed

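RNA of 12 cultures was labelled with biotin and hybridised to single-colour Illumina bead arrays, per the labels' protocols. The authors deposited raw bead intensities with detection p-values, per the file headers. A second deposited table holds intensity values that lay within 0.65% of a quantile normalization of the raw values, leaving out the top 10 probes, with column medians of 73.14 to 73.23. Scanner software is not given in the sources used here. Groups were read from titles.

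Of 45281 probes 34885 had 1 platform symbol, 18 several and 10378 none. Entrez identifiers of GRCm38.p6 updated 10 symbols. The neqc function of limma 3.58.1 under R 4.3.3 estimated the background from the detection p-values, added an offset of 16, normalized by quantiles and gave log2 intensity. With the offset, folds of dim genes come out smaller. Probes passing a detection p of 0.05 on 6 or more arrays were kept (15038), and the brightest stood for its gene (8905 genes). The two-sided test used lmFit and eBayes, and p-values were adjusted by Benjamini-Hochberg over all genes, or over all kept probes where said. The fit was tested on simulated data. The number of arrays limits precision, and the median SE of a log2 fold change was 0.11.

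Members, lists and tests were chosen with earlier results of these data known. The text names every member, and from each list up to 4 called genes with the largest change, or the 2 brightest measured if fewer than 2 were called. Settings tried were other background corrections, 3 other scalings, the authors' values, other filters, the mean over probes, array weights, a trended robust variance, omission of each array and a replicate block. A setting with log2 raw intensity was chosen after seeing the data. The 6 promoter motifs were also chosen after the files were read.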

Additional observations from a re-analysis of the deposited data

Results flagged for a closer look

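Tests for an outlying array were made in 28 sets of 6 arrays, 1 for each probe of the 9 genes and each group, and chance marks about 1 in 20 such sets. A single array stood far from the other 5 in 4 sets. Gja1 was low in CTGF replicate 4, at a log2 intensity of 12.35 against 12.53 for the nearest other CTGF array. The brighter Kcnd2 probe was low in control replicate 6, at 5.79 against 6.27. The detected Kcnj3 probe was low in CTGF replicate 3, at 4.51, where it was not above background, against 4.89. A Kcnip2 probe that was not above background on any CTGF array was high in CTGF replicate 2, at 4.67 against 4.52. Without these arrays the calls of Gja1 and Kcnj3 were as with all 12, and Kcnd2 was not called without control replicate 6.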

How the results depend on the processing

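Between-array scaling decided most changes, and cyclic loess, the authors' values and other background corrections changed no call of a member. Genes called higher numbered 4403 and lower 699 with no normalization between arrays, 4218 and 749 under median scaling, and 4083 and 631 on log2 raw intensity, against 2229 and 1924. These settings called 1, 1 and 2 members higher and 1 member lower each. Hcn2 lost its call in them, at -0.073, -0.098 and -0.064. Kcnd2 was called at 0.66, 0.64 and 0.40 there and at 0.27 with array weights, which then called 1 member higher. Gja1 was called at 0.32 on log2 raw intensity. Kcnip2 turned to 0.16, 0.13 and 0.057 there and to 0.0049 with array weights. Relative to the median of all genes Kcnip2 stayed at -0.19, -0.19 and -0.17 there and at -0.037 with array weights. Over genes detected on all 12 arrays, and with a detection p under 0.01, 1 member was lower, since Kcna5 did not enter these fits, nor did Kcnj3, and Kcnip2 did not enter the first. Kcnj2, Kcnq1 and Hcn4 have values only with no detection filter. Leaving out each array gave 2013 to 2257 genes higher and 1778 to 1924 lower, 0 to 1 members higher and 2 lower in every case. These fits kept the 8905 genes that passed the filter over all 12 arrays. Kcna5, detected on 6 control arrays and no CTGF array, was kept even where leaving out a control took it under that filter. The same held for Kcnj3, detected on 5 CTGF arrays and 1 control array, where a detected array was left out. Log2 fold changes then lay between -0.78 and -0.71 for Kcna5, -0.56 and -0.47 for Hcn2, 0.11 and 0.17 for Gja1, 0.19 and 0.34 for Kcnd2, 0.12 and 0.27 for Kcnj3, and -0.16 and 0.080 for Kcnip2, whose sign turned without control replicate 1 or 2. The cause of these changes was not tested. Same-numbered CTGF and control arrays did not deviate together (correlations of -0.05 to 0.03). These values show no pairing by number but cannot exclude it, since a weak effect of a shared heart could give them too. The replicate block gave 2102 genes higher and 1830 lower and changed no member's call. Dim signals limit Kcna5, Kcnj3, Kcnip2, Kcnj2, Kcnq1 and Hcn4.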

Other observations

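Of 9 tested transcription factors of channel genes 1 rose, 3 fell and 5 did not pass the test, so that 4 of 9 were called beside 46.6% of all genes. Their median log2 fold change was -0.34, beside 0.03 for all genes. Tbx3, a repressor that marks nodal and conduction tissue, changed by -1.06 ± 0.13 (SE, limma adjusted p = 9.02e-06), with -0.64 at a second probe and every CTGF array below every control. Etv1, a factor of fast conduction tissue, changed by -1.03 ± 0.15 (adjusted p = 7.10e-05), also without overlap. Irx5, which represses Kcnd2 across the mouse ventricular wall, changed by -0.49 ± 0.14 (adjusted p = 0.00969) and by -0.06 without normalization between arrays, where its call was lost. The cardiac homeobox gene Nkx2-5 rose by 0.44 ± 0.11 (adjusted p = 0.00336) and was also called higher without normalization between arrays (0.88). In that setting the median of all genes was 0.35.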
